A study of Sus scrofa with 2 samples.

Results

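The genes described here are the mechanically gated channels PIEZO1 and PIEZO2, the actin-regulated transcriptional coactivators MRTFA and MRTFB with their partner SRF, and the Hippo pathway effectors YAP1 and WWTR1 (the gene of TAZ). They were chosen by name, and all 7 had a row among the 31908 genes of the count tables. Their identifiers are ENSSSCG00000035230 (PIEZO1), ENSSSCG00000034765 (PIEZO2), ENSSSCG00000000075 (MRTFA), ENSSSCG00000039171 (MRTFB), ENSSSCG00000001661 (SRF), ENSSSCG00000031429 (YAP1) and ENSSSCG00000011704 (WWTR1).

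Nuclei of pig renal cortex were sequenced in 2 libraries, 1 from unperfused tissue and 1 from tissue of a kidney perfused outside the body for 2 h at 100 mmHg and 37 °C. The pig kidneys came from a slaughterhouse and were flushed and stored cold before use, and the perfusate was a balanced salt solution without albumin or red blood cells. Time, temperature, flow and pressure differed together between the libraries and cannot be told apart, and the sources used here do not say whether both pieces came from 1 animal. With 1 library per group there was no replicate, so no test was made, and the 95% intervals below cover counting error only.

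PIEZO channels open when the membrane is stretched and let calcium into the cell. MRTF proteins are held in the cytoplasm by unpolymerised actin, and they enter the nucleus and bind SRF when actin is built into filaments. YAP1 and TAZ are kept out of the nucleus when the Hippo kinases phosphorylate them, and in the nucleus they work through TEAD factors. MRTFA, MRTFB, YAP1 and TAZ are thus controlled largely by where the protein lies, which an RNA count does not measure.

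After filtering, 6389 unperfused and 5421 perfused nuclei remained, with 26691180 and 27107290 UMIs (unique molecular identifiers, tags that each mark 1 RNA molecule) and a median of 3755 and 4383 UMIs per nucleus. The nuclei fell into 20 clusters, of which 16 were named from marker genes and joined into 12 classes, and 78 of the 89 markers of those classes in the files were highest in their own class. Outside the tubule these were endothelium (EC), stroma (STROMA), immune cells (IMM), podocytes (PODO) and cycling nuclei. The tubule gave the proximal segment (PT), the loop of Henle (LOH), and from there on the distal convoluted (DCT) and the connecting segment (CNT). The collecting duct gave principal cells (PC) and intercalated cells of type A (IC-A) and type B (IC-B). Class sizes ran from 1787 and 1212 nuclei in PT to 89 and 30 in PODO and 32 and 14 in the cycling class. IMM was mixed. A macrophage-like subcluster of 60 and 126 nuclei was the only one named, another carried T lymphocyte markers but few UMIs, and the leading genes of others included LOX and DCN, TINAG or SLC12A1. STROMA held 4 subclusters that were led by genes of other lineages or had few UMIs. Proximal tubule and thick limb markers put the free RNA of a class at 29.8% and 16.5% of its UMIs in STROMA, 10.7% and 8.72% in EC, and 6.96% and 3.80% in PODO. In IMM it was put at 31.8% and 27.3%. STROMA and IMM held subclusters whose leading genes included such markers (CUBN in STROMA, SLC12A1 in IMM), so their shares are upper estimates. Values are given in this order, unperfused and then perfused, throughout. Levels are in CPM, the usual scaling of a gene's summed UMIs by all UMIs of the class, which are not divided by gene length. The levels of different members are therefore not compared with each other. Where the gene of a list with the highest CPM is named below, gene length can be part of that rank.

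PIEZO1 was lower in the perfused library, and most clearly in podocytes, principal cells and endothelial cells. Its level over all kept nuclei was 19.3 CPM (514 UMIs) and 10.4 CPM (282 UMIs), a log2 ratio of perfused over unperfused of −0.89 (95% interval −1.10 to −0.68). That ratio also holds the different shares of the classes in the libraries, EC being 20.1% and 14.7% of nuclei, and their part in it was not tested. PODO held 161 CPM (68 UMIs) and 40.3 CPM (9 UMIs), a level 3.99-fold lower in the perfused library (log2 −1.995, −3.18 to −0.99). In PC the level was 36.6 CPM (27 UMIs) and 7.33 CPM (6 UMIs), with a log2 ratio of −2.32 (−3.89 to −1.01). The richest unperfused podocyte nucleus held 4 of the 68 UMIs, so the level did not rest on a few nuclei.

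EC held more PIEZO1 UMIs than any other class. There PIEZO1 stood at 93.1 CPM (243 UMIs, interval 81.7 to 106) and 53.7 CPM (105 UMIs, 43.9 to 65.0), a log2 ratio of −0.79 (−1.14 to −0.46). A PIEZO1 UMI was found in 16.4% and 11.4% of endothelial nuclei, or in 8.74% and 5.79% once each nucleus was thinned to 1000 UMIs. In PC these shares were 13.6% and 3.97%, and 6.82% and 0.667% after thinning. The proximal tubule, where the gene was scarcest, had a UMI in 1.40% and 0.248% of nuclei at a deeper median of 5288 and 6607 UMIs, against 1875 and 2198 in EC. The endothelial shares were thus well above that background in both libraries.

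In the rest of the cortex PIEZO1 was scarce or did not separate between the libraries. STROMA held 22.9 and 20.8 CPM (log2 −0.14, −0.88 to 0.62), IC-A 14.7 and 12.9 CPM (−0.18, −1.30 to 0.87), and IC-B 14.8 and 16.6 CPM (0.16, −1.38 to 1.65). IMM held 40.7 and 28.3 CPM (−0.53, −1.19 to 0.17), and the cycling nuclei 53.4 and 57.4 CPM on 9 and 6 UMIs. The intervals of these 5 classes hold both no difference and sizeable ones.

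PT, LOH and DCT also had fewer PIEZO1 UMIs in the perfused library, 25 and 3, 12 and 4, and 10 and 1. The free RNA of each library, estimated from tubule markers, would by itself give 1.68 and 0.477 CPM in PT, against 2.46 and 0.361 CPM measured. In LOH it would give 0.960 and 0.458 CPM against 3.65 and 0.813, and in DCT 9.59 and 5.22 CPM against 6.55 and 0.871, where the free share of 49.8% and 50.2% is an upper estimate. The PT and DCT counts were therefore close to or below what free RNA alone would give, and they are not read as expression in those cells. CNT held 3.12 and 1.41 CPM on 7 and 2 UMIs.

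In order of the mean of both libraries, PIEZO1 ran from PODO, EC and the cycling nuclei through IMM, PC, STROMA, IC-B and IC-A down to DCT, CNT, LOH and PT. The ranges over the 2 libraries overlapped between PODO and EC and between EC and the cycling class. In the unperfused library alone the counting intervals of PODO (125 to 204 CPM) and EC (81.7 to 106 CPM) were apart, and in the perfused library (18.4 to 76.5 and 43.9 to 65.0 CPM) they overlapped. The ranges over the libraries did not overlap at the step from IC-A to DCT, where the mean was 3.72-fold lower. PIEZO1 was lower in the perfused library in 10 of the 12 classes, with an interval below 0 in 6 of them, of which PT and DCT are those near or below free RNA. How many of all genes had such an interval was not computed.

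**Figure D1:**
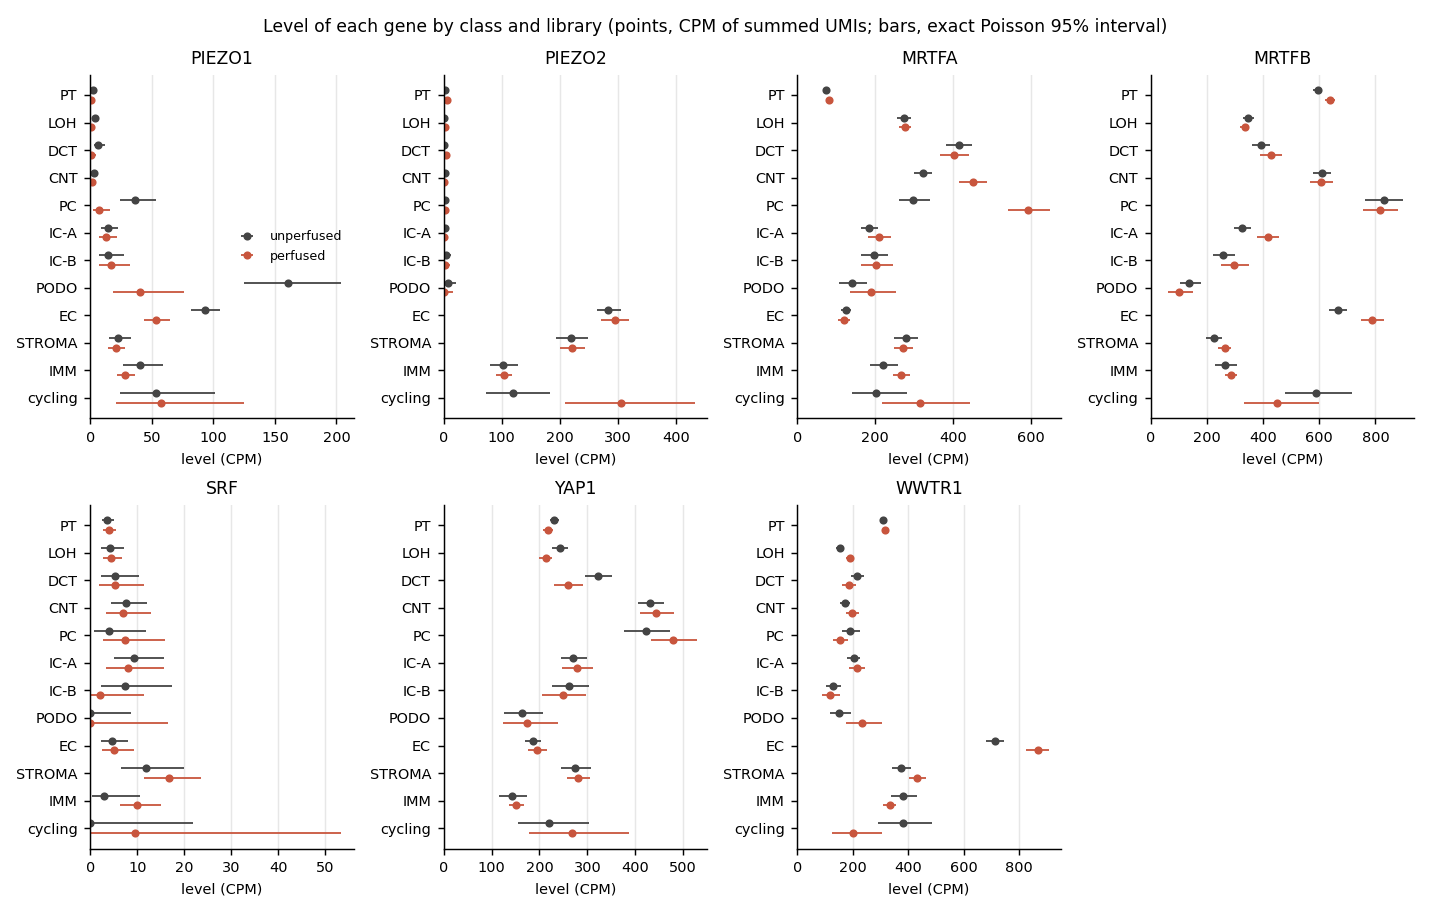
Levels of the 7 genes (x axis, CPM of the summed UMIs of a class, a separate linear scale for each gene) in 12 classes of nuclei (y axis), for the unperfused (grey) and the perfused library (red), with exact Poisson 95% intervals as bars. PIEZO1 is highest in unperfused podocytes at 161 CPM and lies at 40.3 CPM in perfused ones, and PIEZO2 is near 0 in every tubule class.

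PIEZO2, the second channel of the family, was found in endothelial, stromal and cycling nuclei and was all but absent from the tubule. EC held 283 CPM (740 UMIs) and 294 CPM (576 UMIs), and STROMA 219.9 CPM (259 UMIs) and 221 CPM (425 UMIs). The log2 ratios were 0.05 (−0.10 to 0.21) in EC and 0.01 (−0.22 to 0.24) in STROMA, the intervals covering counting error only. The STROMA value joined subclusters with ratios on both sides of 0, and at a coarser clustering it was 0.36 (0.03 to 0.70). IMM held 102 and 103 CPM (0.02, −0.37 to 0.42), but its subclusters differed. The macrophage-like nuclei held 65.0 and 16.8 CPM on 8 and 5 UMIs (−1.95, −3.91 to −0.16). The subcluster with T lymphocyte markers had 0 and 3 UMIs. Unnamed IMM subcluster 4, whose leading genes included DGKI and RASGRF2, held 206 and 259 CPM. The class level is therefore not read as that of immune cells.

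The tubule held almost none. LOH, CNT, PC, IC-A, IC-B and DCT each held 0 to 10 UMIs per library and at most 4.45 CPM, and PODO held 3 UMIs and 0 UMIs. A PIEZO2 UMI was found in 35.7% and 39.6% of endothelial nuclei (21.9% and 24.1% after thinning), against 1.06% and 1.98% of PT nuclei (0.225% and 0.253%), the median depths being those given above. From IMM to PT, the next class in order, the mean level was 27.6-fold lower, and the classes below PT do not separate from one another.

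PT had 23 and 43 PIEZO2 UMIs, a log2 ratio of 1.19 (0.43 to 1.99), but 13 of the 43 lay in 1 nucleus and free RNA alone would give 3.73 and 2.28 CPM against 2.26 and 5.17 measured. With no limit on mitochondrial UMIs the same ratio was −0.00019, and without nuclei that carry another lineage's marker −0.093, so the direction is not kept. The cycling class held 119 and 306 CPM on 20 and 32 UMIs (1.37, 0.52 to 2.25), with 12 of the 32 in 1 nucleus.

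Within EC and STROMA the level of PIEZO2 differed several-fold between subclusters. The mesangial-like subcluster of STROMA, the contractile cells of the glomerulus, held 805 CPM (59 UMIs in 30 nuclei) and 912 CPM (145 UMIs in 52 nuclei), and 76.7% and 80.8% of its nuclei had a UMI. Smooth muscle or pericyte-like nuclei held 233 and 266 CPM, and an unnamed subcluster (subcluster 3) 14.9 and 49.9 CPM. The largest unnamed subcluster of STROMA was at 265 and 161 CPM (−0.72, −1.21 to −0.24), and subcluster 2 at 220.0 and 144 CPM (−0.61, −1.20 to −0.0032), both lower in the perfused library. In the mesangial-like nuclei PIEZO1 had 2 and 1 UMIs, too few for a ratio.

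Among endothelial nuclei, the glomerular-like subcluster held 203 and 222 CPM of PIEZO2 and the largest unnamed subcluster (subcluster 0) 353 and 338 CPM. Endothelial subcluster 3 held 85.4 and 176 CPM (1.05, 0.19 to 1.93). The arterial-like subcluster had none in 76301 and 61510 UMIs, where a count of 0 allows up to 48.3 and 60.0 CPM as the upper end of the exact interval. Those arterial-like nuclei had 197 and 114 CPM of PIEZO1 on 15 and 7 UMIs. PIEZO1 was lower in the perfused library in the glomerular-like endothelium (106 and 44.5 CPM, log2 −1.26, −2.19 to −0.40) and in subcluster 0 (81.6 and 39.9 CPM, −1.03, −1.64 to −0.46). In subcluster 1 it was 92.0 and 68.2 CPM (−0.43, −1.09 to 0.20) and in subcluster 3 89.4 and 79.1 CPM (−0.18, −1.29 to 0.88), and whether these subclusters differ from the others was not tested.

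**Figure D2:**
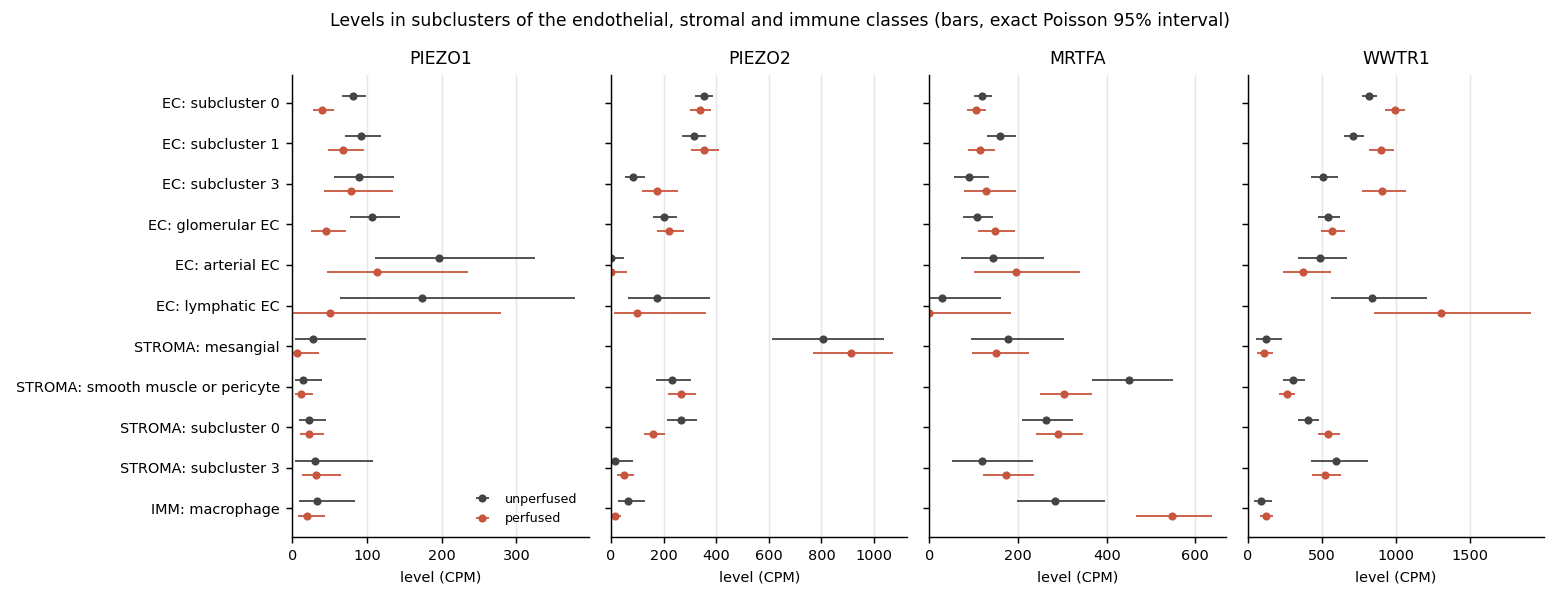
Levels of PIEZO1, PIEZO2, MRTFA and WWTR1 (x axes, CPM, linear) in subclusters of the endothelial, stromal and immune classes (y axis), unperfused in grey and perfused in red, with exact Poisson 95% intervals. The mesangial-like nuclei stand apart for PIEZO2, at 805 and 912 CPM, and the macrophage-like nuclei hold 284 and 547 CPM of MRTFA.

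MRTFA, 1 of the 2 coactivators that unpolymerised actin holds back, was highest in PC, DCT and CNT. In PC and CNT it was higher in the perfused library. In PC its level was 298 CPM (220 UMIs, 259.8 to 339.9) and 592 CPM (485 UMIs, 541 to 647), 1.99-fold higher in the perfused library (log2 0.99, 0.76 to 1.23). CNT held 322 CPM (722 UMIs) and 449.9 CPM (640 UMIs), a log2 ratio of 0.48 (0.33 to 0.64). The share of PC nuclei with a UMI was 63.6% and 83.4%, and 26.7% and 40.0% at a matched depth of 1000 UMIs. In CNT it was 62.2% and 83.0%, and 28.3% and 34.7% at that depth.

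DCT, with the highest unperfused level, did not share that difference. It held 414 and 402 CPM of MRTFA (log2 −0.04, −0.22 to 0.13), LOH 273 and 277 CPM (0.02, −0.10 to 0.14), and IC-A 185 and 209.8 CPM (0.18, −0.08 to 0.45). IC-B was at 196 and 201 CPM (0.04, −0.36 to 0.43) and PT, the lowest class, at 74.0 and 82.2 CPM (0.15, −0.0012 to 0.30). Outside the tubule, STROMA held 278 and 272 CPM (−0.03, −0.24 to 0.17), EC 124 and 119 CPM (−0.07, −0.32 to 0.18) and PODO 139 and 188 CPM (0.43, −0.17 to 1.03). The cycling class was at 202 and 316 CPM (0.65, −0.09 to 1.38).

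MRTFA in IMM was at 219.7 and 266 CPM (0.28, 0.02 to 0.54), and its macrophage-like nuclei had a larger difference than the class. In them it stood at 284 CPM (35 UMIs) and 547 CPM (163 UMIs), a log2 ratio of 0.94 (0.41 to 1.51), and the share of nuclei with a UMI was 33.3% and 51.6% (19.1% and 38.0% after thinning). Within STROMA the smooth muscle or pericyte-like nuclei held 451 and 304 CPM (−0.57, −0.97 to −0.16) and subcluster 2, led by endothelial and immune genes, 151 and 314 CPM (1.06, 0.44 to 1.74). The level of the whole class thus joined subclusters with opposite differences. In the order of classes the ranges of PC, DCT and CNT overlapped, that of CNT lay apart from STROMA, the next class, and the mean in PC was 5.70 times that in PT.

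MRTFB, the closest relative of MRTFA, was highest in PC and lowest in podocytes. PC held 829 and 816 CPM (log2 −0.02, −0.18 to 0.14), CNT 609 and 606 CPM (−0.01, −0.13 to 0.12), LOH 347 and 334 CPM (−0.06, −0.17 to 0.05) and DCT 392 and 427 CPM (0.12, −0.05 to 0.30). None of these 4 classes had an interval without 0. PT stood at 594 CPM (6039 UMIs) and 637 CPM (5294 UMIs), a difference of 0.10 (0.05 to 0.15) that the large count bounds tightly.

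EC and IC-A had the clearest differences of MRTFB. In EC it was at 667 CPM (1741 UMIs) and 788 CPM (1542 UMIs), a log2 ratio of 0.24 (0.14 to 0.34), with 65.1% and 74.0% of nuclei carrying a UMI (46.0% and 52.2% after thinning). IC-A held 325 and 416 CPM (0.35, 0.16 to 0.55), and IC-B 258 and 296 CPM (0.20, −0.13 to 0.53). All 3 large endothelial subclusters pointed the same way, with 747 and 849.9 CPM in subcluster 0, 647 and 850.4 CPM in subcluster 1 and 532 and 653 CPM in the glomerular-like one.

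STROMA held 223 and 263 CPM of MRTFB (0.23, 0.02 to 0.45). Free RNA alone would give up to 149 and 80.0 CPM of it, the free share of STROMA being an upper estimate. With that upper estimate subtracted the ratio was 1.04, and without the 4 subclusters of doubtful lineage 0.49. IMM was at 265 and 284 CPM (0.10, −0.14 to 0.34), PODO at 137 and 98.6 CPM (−0.48, −1.26 to 0.25) and the cycling class at 588 and 449.8 CPM (−0.39, −0.92 to 0.13). PC, EC and PODO each lay apart from their neighbours in the order of classes, the mean in PODO being 6.98-fold below that in PC.

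SRF, the DNA-binding partner of both MRTFs, gave 132 and 184 UMIs in all, 4.95 and 6.79 CPM (log2 0.46, 0.13 to 0.79). The classes made up different shares of the 2 libraries, and the part of that in this ratio was not tested. Of the named classes, STROMA had the highest level, 11.9 CPM (14 UMIs) and 16.7 CPM (32 UMIs), a log2 ratio of 0.49 (−0.46 to 1.51). A cluster that no marker list named, described at the end, held 11.2 and 63.7 CPM on 4 and 16 UMIs. Podocytes had no SRF UMI in either library, which allows up to 8.72 and 16.5 CPM, and PT held 3.64 and 3.97 CPM (0.13, −0.60 to 0.84). EC was at 4.597 and 5.11 CPM, LOH at 4.25 and 4.47 CPM, CNT at 7.57 and 7.03 CPM, IC-A at 9.35 and 7.95 CPM and DCT at 5.24 and 5.23 CPM. PC had 3 and 6 UMIs, IC-B 5 and 1, IMM 2 and 23 and the cycling class 0 and 1. No named class had an interval of SRF without 0, and these counts leave its direction within a class undetermined. At a coarser clustering the level in STROMA was 3.77 and 4.40 CPM, below IC-A, and without nuclei that carry another lineage's marker it was 61.9 and 9.20 CPM on 6 and 1 UMIs (−2.75), so neither its first place nor its sign is kept.

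YAP1, the effector that the Hippo kinases hold in the cytoplasm, was highest in principal and connecting tubule cells. PC held 422 and 480.0 CPM (log2 0.18, −0.03 to 0.40) and CNT 432 and 444 CPM (0.04, −0.11 to 0.19), and their ranges overlapped each other and that of no other named class. DCT was at 322 and 259.6 CPM (492 and 298 UMIs, −0.31, −0.53 to −0.10) and LOH at 242 and 213 CPM (798 and 1047 UMIs, −0.19, −0.32 to −0.05), both lower in the perfused library. In LOH the ratio was only −0.054 with TMM and −0.046 with size factors, so that difference does not hold under another scaling.

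The other classes of YAP1 lay between 143 and 280.3 CPM in both libraries, with intervals that held 0. STROMA was at 275 and 280.3 CPM (0.03, −0.17 to 0.23), EC at 187 and 195 CPM (0.06, −0.14 to 0.26), PODO at 163 and 175 CPM (0.10, −0.51 to 0.69) and PT at 231 and 218 CPM (−0.09, −0.18 to 0.0027). IC-A held 271 and 278 CPM, IC-B 263 and 249 CPM, IMM 143 and 152 CPM and the cycling class 219.7 and 268 CPM. The mesangial-like nuclei were at 205 CPM on 15 UMIs and 359 CPM on 57 UMIs (0.81, −0.03 to 1.74). Macrophage-like nuclei had little, 65.0 and 60.4 CPM on 8 and 18 UMIs.

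WWTR1 was highest in endothelium, and higher there in the perfused library. EC held 712 CPM (1860 UMIs, 680.5 to 746) and 867 CPM (1697 UMIs, 827 to 909.7), a log2 ratio of 0.28 (0.19 to 0.38), and the mean was 1.96 times that of STROMA, the next class. The difference was found in the unnamed endothelial subclusters 0 (817 and 992 CPM, 0.28, 0.15 to 0.41), 1 (712 and 901 CPM, 0.34, 0.15 to 0.53) and 3 (508 and 906 CPM, 0.83, 0.48 to 1.19). The glomerular-like endothelium was at 543 and 569.6 CPM (0.07, −0.22 to 0.35), and the difference between subclusters was not tested.

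Podocytes and the loop of Henle also had more WWTR1 in the perfused library. PODO held 151 CPM (64 UMIs) and 233 CPM (52 UMIs), a log2 ratio of 0.62 (0.07 to 1.17), and LOH 153 CPM (503 UMIs) and 189 CPM (928 UMIs), 0.30 (0.14 to 0.46). STROMA was at 374 and 433 CPM (0.21, 0.04 to 0.38), but without its 4 subclusters of doubtful lineage the ratio was −0.0015 and at a coarser clustering −0.53. No direction is therefore given for stroma.

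PT held 311 and 316 CPM of WWTR1 (0.02, −0.05 to 0.10), CNT 171 and 199 CPM (0.22, −0.01 to 0.44), PC 191 and 155 CPM (−0.30, −0.66 to 0.06) and DCT 216 and 186 CPM (−0.22, −0.48 to 0.03). IC-A was at 203 and 215 CPM, IC-B at 129 and 118 CPM and IMM at 383 and 333 CPM (−0.20, −0.40 to 0.01). Within IMM the macrophage-like nuclei held 89.4 and 121 CPM on 11 and 36 UMIs, and unnamed subcluster 4 held 722 and 627 CPM. The cycling class had 64 and 21 UMIs, 380.0 and 201 CPM (−0.92, −1.70 to −0.19). Below PT the neighbours in the order of classes do not separate until IC-B, the lowest.

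**Figure D3:**
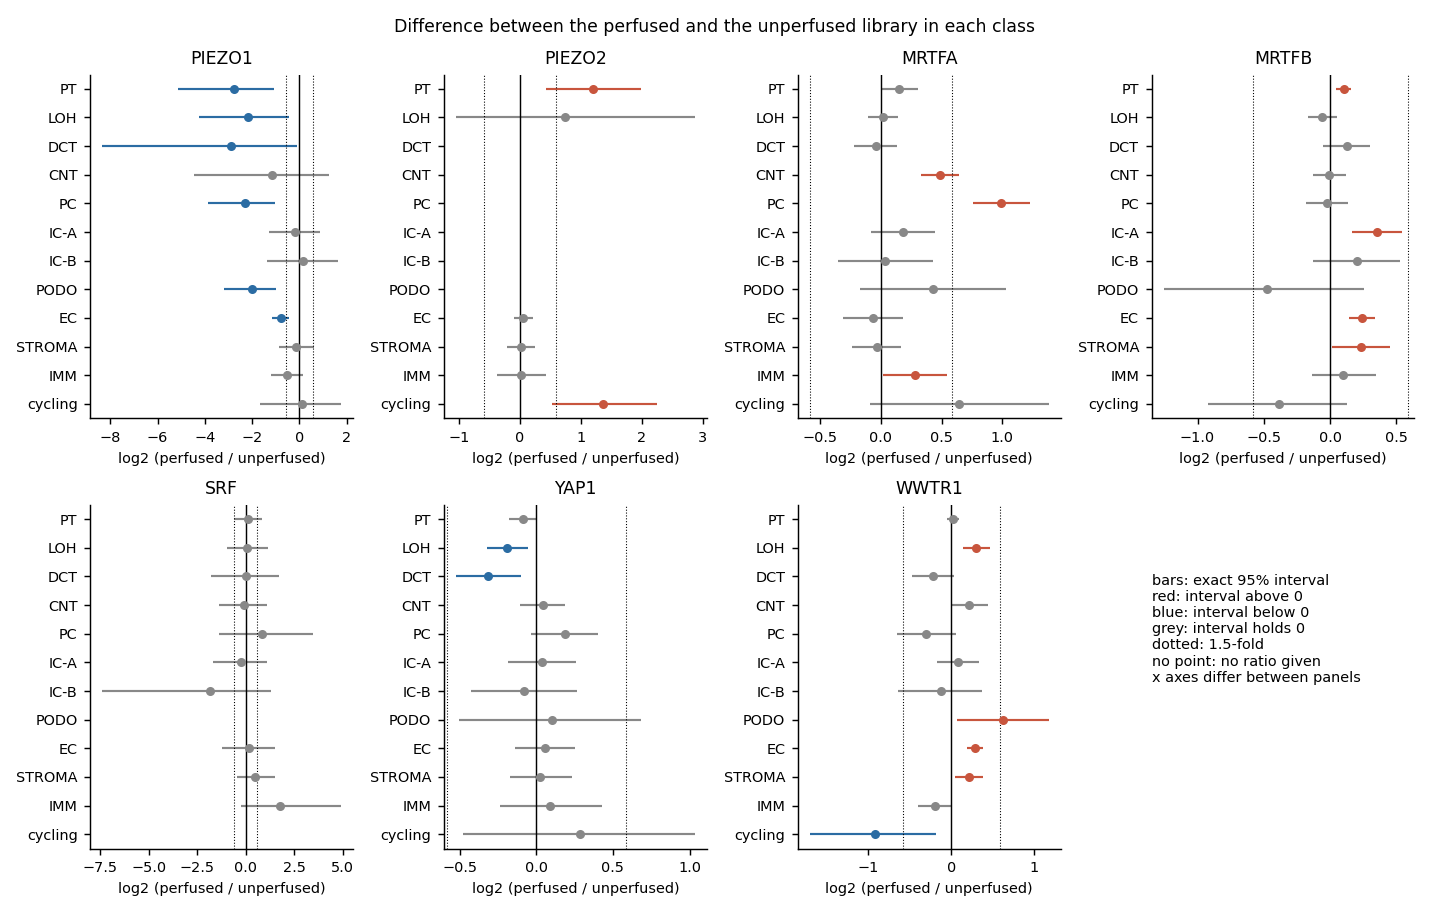
Log2 ratio of the perfused over the unperfused level (x axes, which differ between panels) for the 7 genes in 12 classes (y axis), with exact 95% intervals as bars and dotted lines at 1.5-fold. Intervals below 0 are blue and above 0 red, and 6 of the 9 blue ones belong to PIEZO1. The share of all genes with such intervals was not computed.

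Of the 84 pairs of a member and a class, 76 had enough UMIs for a ratio. The interval lay without 0 in 22 of them, 13 higher and 9 lower in the perfused library. The share of all genes with such an interval was not computed, so these counts do not set the members apart. With no minimum of UMIs, 17 ratios were past 1.5-fold. The shares that follow cover only genes with at least 50 UMIs over both libraries in a class, so not all of the 17 enter them. In EC 14.4% of such genes lay past 1.5-fold in either direction, and 1 of the 6 members so covered did (PIEZO1). In PODO the share was 19.3%, and 2 of 5 members were past it (PIEZO1 and WWTR1). In PC the share was 23.7% and 1 of 4 members was past it (MRTFA), in PT 15.3% with 1 of 6 (PIEZO2), and in the cycling class 39.1% with 3 of 5 (PIEZO2, MRTFA and WWTR1). No covered member was past 1.5-fold in CNT (15.5% of genes), DCT (13.1%), LOH (13.1%), IC-A (16.5%), IC-B (14.8%), IMM (18.3%) or STROMA (22.3%). With 4 to 6 members covered in a class, these counts are too small to set the members apart from the background. Except in the cycling class (19.2% lower and 19.9% higher), genes past 1.5-fold were more often lower than higher. The shares were 11.9% against 2.56% in EC and 12.8% against 6.54% in PODO, but nearly even in STROMA, 11.4% against 10.9%. Scaling by TMM instead of the class total adds 0.14 to every log2 ratio in EC, 0.16 in PC, 0.12 in STROMA, 0.13 in LOH and 0.21 in IMM, and −0.14 in the cycling class, with smaller shifts elsewhere, and size factors give similar ones. The median log2 ratio over all genes was −0.10 in EC and between −0.06 and 0.03 in the other classes.

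The balance between relatives was compared through ratios of UMIs, in which gene length cancels between classes. WWTR1 gave 3.81 UMIs for each YAP1 UMI in EC (3.45 to 4.22) and 4.45 (3.98 to 4.99) in the perfused library, but only 0.396 and 0.448 in CNT and 0.452 and 0.323 in PC. PT and STROMA lay between, at 1.34 and 1.45 and at 1.36 and 1.54. In LOH the ratio was 0.630 (0.563 to 0.706) and 0.886 (0.811 to 0.969). WWTR1 was higher there in the perfused library, while the lower YAP1 did not hold under another scaling.

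MRTFB gave 8.02 UMIs for each MRTFA UMI in PT (7.43 to 8.66) and 7.75 (7.16 to 8.41) in the perfused library, and 5.37 and 6.65 in EC. STROMA held 0.802 and 0.966 and DCT 0.946 and 1.06. Free RNA was put at up to 29.8% and 16.5% of UMIs in STROMA and up to 49.8% and 50.2% in DCT. The balances of STROMA and DCT are therefore not read as those of the cells alone. With free RNA subtracted, 13 class values of these UMI ratios, over both pairs of relatives, left their counting interval. In PC the ratio was 2.78 (2.38 to 3.26) and 1.38 (1.22 to 1.55), and in CNT 1.89 (1.73 to 2.08) and 1.35 (1.21 to 1.49), so in both classes MRTFA took a larger part in the perfused library. The macrophage-like nuclei had 0.657 and 0.350.

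**Figure D4:**
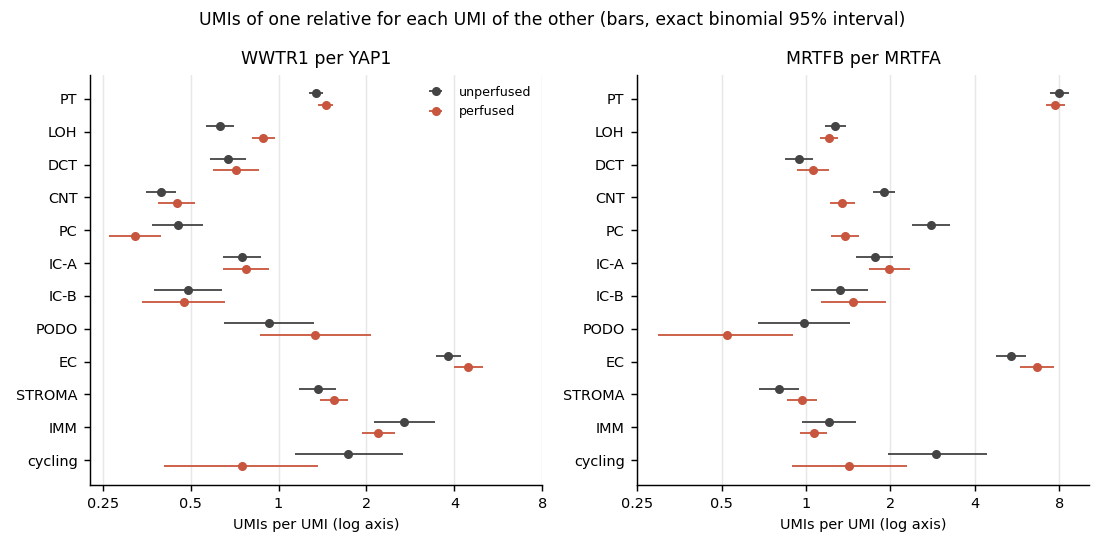
UMIs of WWTR1 for each UMI of YAP1 (left) and of MRTFB for each UMI of MRTFA (right) on log x axes, in 12 classes (y axis), unperfused in grey and perfused in red, with exact binomial 95% intervals. The endothelial class leads on the left at 3.81 and 4.45 and the proximal tubule on the right at 8.02 and 7.75.

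The genes whose levels over the 12 classes followed each member most closely were found by Pearson's r of log2(CPM + 5), among 11032 genes, and are a description of 12 classes that share 2 libraries. PIEZO1 was followed by MAP4, a microtubule-associated protein (r = 0.96), BTBD7 (0.96) and TMEM8B (0.94). PIEZO2 was followed by CHSY3, a chondroitin sulfate synthase (0.99), GJC1, the gap junction protein connexin 45 (0.99), and ADAMTS12, a secreted protease (0.99). Like PIEZO2, CHSY3 was high in EC, at 269.7 and 406 CPM, and STROMA, at 234 and 257 CPM, and was at 1.67 and 3.49 CPM in PT.

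For MRTFA these genes were CUL7, a ubiquitin ligase scaffold (0.90), SCAI, a cofactor known to bind MRTFA and repress it (0.89), and CTNND2 (0.89). For MRTFB they were SNX24 (0.90), HMBOX1 (0.89) and UBE2K (0.88), and for YAP1 TTC8, a protein of the ciliary BBSome (0.89), STK36 (0.88) and ZBTB44 (0.88). WWTR1 was followed by DCHS1, a large cadherin that binds FAT4 (0.95), SLC16A13 (0.93) and GNA12, a G protein subunit (0.93). SRF was followed by SORBS2, ENY2 and GALNT16 (0.88, 0.88 and 0.85), on 132 and 184 UMIs. Between members themselves, r was 0.82 for PIEZO2 and WWTR1, 0.63 for PIEZO1 and PIEZO2, 0.60 for MRTFA and YAP1, 0.07 for MRTFA and MRTFB and −0.31 for PIEZO1 and SRF.

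The rest of the pathway was read from 6 lists of genes, counted over those with at least 50 UMIs over both libraries in the class. How many of all genes were higher or lower at any size was not computed, so such counts do not set a list apart. Of the 11 other mechanosensitive channels, 8 were so covered in STROMA (3 higher and 5 lower in the perfused library, median log2 ratio −0.13 against −0.02 for all genes), 6 in EC (2 and 4, −0.04 against −0.10) and 3 in PODO (all higher, 0.31 against −0.03). TRPC6, the calcium channel of podocytes and mesangial cells, was at 44.1 and 77.6 CPM in STROMA (0.81, 0.35 to 1.30). TMEM63B, an osmosensitive channel, was at 182 and 101 CPM in EC (−0.85, −1.10 to −0.61), the only one past 1.5-fold there. TMEM63A in EC was at 57.5 and 58.8 CPM. TRPC1 in PODO was at 175 and 291 CPM (0.74, 0.23 to 1.24). TRPM7 was the highest by CPM in STROMA (446 and 368, −0.28, −0.44 to −0.11) and in EC (435 and 415), and the lowest ratio in PODO (0.23, −0.28 to 0.73).

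MRTF-SRF targets, genes of the contractile and cortical actin apparatus, were highest in STROMA for 16 of 20 and in IMM for the other 4. As IMM was mixed, its levels of these targets are not read as those of immune cells. All 20 targets were covered in STROMA, 17 higher and 3 lower, 6 past 1.5-fold higher and 0 lower, median 0.32, where 10.9% of all genes were past 1.5-fold higher and 11.4% lower, with a median of −0.02. They ran from MYL9, a myosin light chain (42.5 and 106 CPM, 1.32, 0.87 to 1.80), to the smooth muscle myosin MYH11 (404 and 318 CPM, −0.34, −0.52 to −0.17), and CALD1 had the highest level (2309 and 2914 CPM, 0.34, 0.27 to 0.40). The estimated free RNA of STROMA was lower in the perfused library (29.8% and 16.5%). No list was recomputed with free RNA subtracted or without the 4 subclusters of doubtful lineage, so the part of these in the STROMA ratios was not tested. EC had 12, 9 higher and 3 lower, median 0.12, from CALD1 (131 and 201 CPM, 0.62, 0.40 to 0.83) to FLNA (41.8 and 29.6 CPM, −0.49, −0.98 to −0.02). MYH9 had the highest CPM in EC (177 and 201). PODO had 4, all higher, median 0.48 against −0.03 for all genes. They ran from ACTN1 (66.2 and 103 CPM, 0.64, −0.22 to 1.49) to ACTG1 (125 and 139 CPM, 0.15), with TPM1 highest at 272 and 354 CPM. Only MYH9 of these had an interval without 0 (0.57, 0.01 to 1.12). Of the other SRF cofactors, MYOCD, the smooth muscle coactivator, was at 85.7 and 50.01 CPM in STROMA (−0.78, −1.20 to −0.36), and ELK3, the highest ratio there, at 50.9 and 69.8 CPM (0.45, 0.0049 to 0.92). In EC ELK3 was at 418 and 464 CPM (0.15, 0.02 to 0.28) and ELK4 at 41.4 and 30.7 CPM (−0.43, −0.91 to 0.04).

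Hippo kinases and adaptors split in STROMA, 11 higher and 8 lower of 19 (median 0.04), and were lower in EC for 15 of 19 (median −0.14 against −0.10 for all genes). In STROMA TAOK2 had the highest ratio (24.6 and 40.1 CPM, 0.70, 0.07 to 1.37), the scaffold SAV1 the lowest (28.0 and 16.7 CPM, −0.75, −1.50 to −0.0025) and STK3, the kinase MST2, the highest level (360.0 and 312 CPM). In EC WWC1 had the highest ratio (23.7 and 33.7 CPM, 0.51, −0.02 to 1.03). WWC1 stood at 1364 and 1736 CPM in LOH, and free RNA was put at 10.7% and 8.72% of UMIs in EC. Its EC level is therefore not read as endothelial, and the part of free RNA in its ratio was not tested. The kinase LATS1, which phosphorylates YAP1 and TAZ, had the lowest ratio in EC (86.6 and 57.3 CPM, −0.60, −0.94 to −0.26), and AMOTL1 the highest level (536 and 573 CPM). PODO had 8, 5 higher and 3 lower, median 0.05, from TAOK3 (118 and 224 CPM, 0.92, 0.33 to 1.52) to STK3 (215 and 188 CPM, −0.19), with WWC2 highest at 243 and 246 CPM.

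TEAD factors carry YAP1 and TAZ to DNA, and VGLL4 competes for them. In STROMA 4 of 5 were covered, 2 in each direction, with TEAD4 highest in ratio (40.8 and 65.1 CPM, 0.68, 0.19 to 1.19), VGLL4 lowest (261 and 228 CPM, −0.20, −0.41 to 0.02) and TEAD1 highest in level (381 and 349 CPM). In EC 4 were covered, 2 in each direction, from TEAD1 (94.997 and 117 CPM, 0.29, 0.03 to 0.56) to TEAD2 (24.1 and 19.9 CPM, −0.28), with VGLL4 highest in level (353 and 334 CPM). In PODO TEAD1 was at 508 and 538 CPM and VGLL4 at 534 and 556 CPM, with ratios of 0.08 and 0.06.

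YAP targets shared AMOTL2, LATS2 and PTPN14 with the Hippo list. In STROMA 15 were covered, 7 higher and 8 lower, 0 past 1.5-fold higher and 3 lower, median −0.11, against those 10.9% and 11.4% of all genes. NUAK2 had the highest ratio (21.2 and 31.3 CPM, 0.56, −0.14 to 1.29), F3, the tissue factor that starts coagulation, the lowest (37.4 and 7.81 CPM, −2.26, −3.21 to −1.38), and RBMS3 the highest level (2280.4 and 2698 CPM, 0.24). F3 was the leading gene of the fibroblast-like STROMA subcluster, which had 25 unperfused and 2 perfused nuclei, and the part of that in its ratio was not tested. EC had 12, 7 higher and 5 lower, median 0.15, from TGFB2 (81.6 and 115 CPM, 0.49, 0.21 to 0.77) to CCN2 (51.7 and 42.9 CPM, −0.27, −0.68 to 0.14), with RBMS3 highest (2048 and 2858 CPM, 0.48, 0.43 to 0.54). PODO had 8, 6 higher and 2 lower, median 0.15, from ASAP1 (87.5 and 139 CPM, 0.67) to MYOF (239 and 224 CPM, −0.09), with RBMS3 again highest (1373 and 1644 CPM).

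Principal cells, where MRTFA differed most, were looked at in the same lists after those values were seen. MRTF-SRF targets had a median log2 ratio of 1.09 in PC (8 covered, 6 higher and 2 lower, 5 past 1.5-fold higher), against −0.04 for all genes, of which 8.76% were past 1.5-fold higher and 14.9% lower. ACTB, which encodes beta actin, was at 48.7 and 243 CPM (2.32, 1.80 to 2.87) and VCL, the focal adhesion protein vinculin, at 227 and 655 CPM (1.53, 1.27 to 1.78). All 8 covered YAP targets were higher, with a median of 0.42, led by NUAK2, a kinase of actomyosin contraction, at 104 and 1025 CPM (3.30, 2.96 to 3.65). TEAD1 was at 432 and 729 CPM (0.76, 0.56 to 0.96) and WWC1, an activator of the Hippo kinases, at 1162 and 2478 CPM (1.09, 0.98 to 1.21). Each had the highest ratio of its list in PC. The kinases of the Hippo list lay on both sides of 0. They ran from STK3 (280 and 221 CPM, −0.34, −0.64 to −0.05) to LATS2 (85.3 and 103 CPM, 0.27, −0.22 to 0.76). Other mechanosensitive channels were 3 higher and 3 lower of 6, with a median of 0.00079. TRPV4 (283 and 424 CPM, 0.58, 0.33 to 0.84) and PKD2 (269 and 348 CPM, 0.37, 0.10 to 0.64) had intervals above 0. The intervals of the remaining channels, among them the 3 lower ones, held 0.

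**Figure D5:**
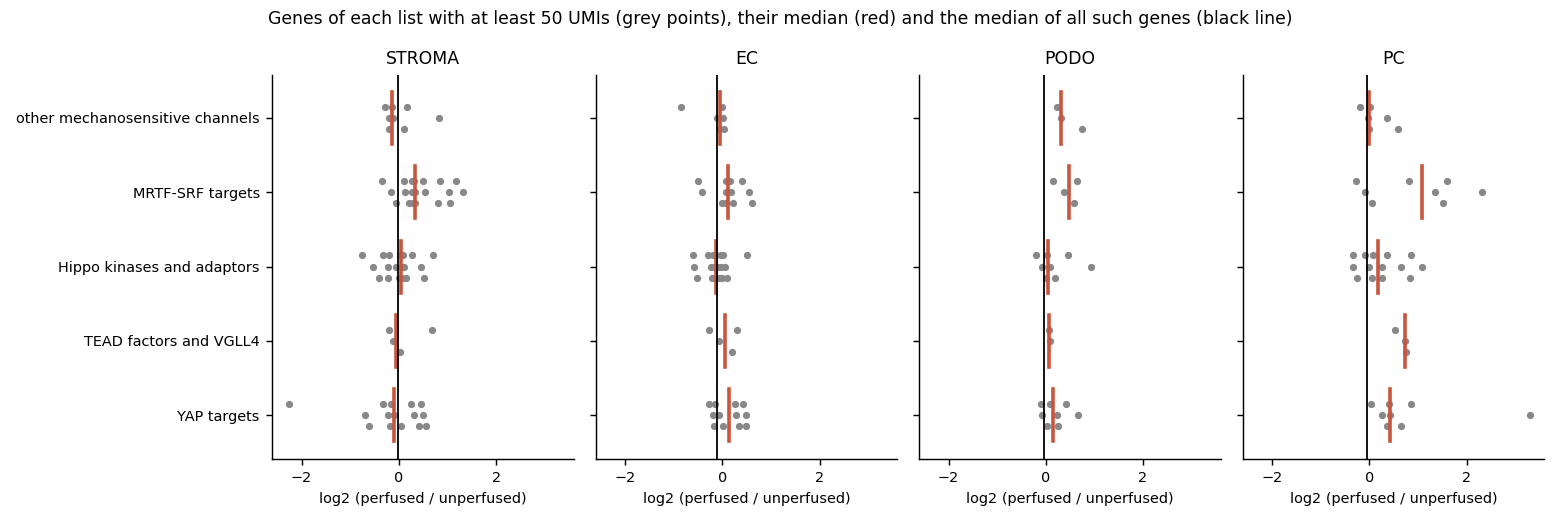
Log2 ratios of perfused over unperfused level (x axes) of the genes of 5 lists (y axis) in STROMA, EC, PODO and PC, 1 grey point for each gene with at least 50 UMIs, the list's median in red and the median of all such genes as a black line. The MRTF-SRF targets have their widest distance from that line in PC, where their median is 1.09, against 0.32 in STROMA.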

How the data were processed

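The data are 2 single-nucleus libraries of pig kidney cortex, 1 unperfused and 1 perfused. The authors processed the reads with Cell Ranger 5.0.1 (per the labels) against an Ensembl pig reference with introns included, and deposited raw UMI counts (whole numbers, a gene by barcode matrix), which still held barcodes that the filters below removed. Barcodes needed 500 to 6000 genes and no more than 7% of UMIs from mitochondrial genes, and Scrublet doublets (scanpy 1.11.5) were dropped, which left 6389 of 7179 and 5421 of 6205 barcodes. Of these, 8 barcode sequences occurred in both libraries. Ambient RNA was not removed, since empty droplets were not used here. Libraries were integrated in Seurat 5.3.0 (R 4.3.3) with 2000 variable genes, from which the members and the listed genes were left out, and clustered on 15 components at a resolution of 0.5.

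A cluster was named from marker lists when at least 3 markers had a log2 fold over 1 (offset 5 CPM) and were found in at least 10% of its nuclei, unless its 10 leading genes were richer in markers of a different list. A cluster or subcluster with few UMIs and none of its own markers among those 10 genes was also left unnamed. UMIs were summed per class and library. Intervals are exact at 95% (Poisson for CPM, binomial for shares, conditional binomial for ratios) and do not reach beyond counting error. For ratios, 3 counts stood in for a library with none, and genes with 3 counts or fewer in each library got no ratio. The interval functions were tested on simulated data. Genes named are the members, the 3 genes most like each, and, in STROMA, EC and PODO, the gene of each list with the highest ratio, the lowest ratio and the highest level. The PC genes were picked with their values in view. The members and lists were chosen with earlier results of these data known. ELK1, IGFBP3 and ARHGEF17 of the lists were not analysed here, and 1 further list is not reported here. Alternative scalings used edgeR 4.0.16 and DESeq2 1.42.0 factors only, with no test.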

Additional observations from a re-analysis of the deposited data

Results flagged for a closer look

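WWTR1 stood out because its difference between the libraries pointed in opposite directions in different classes, each with a counting interval without 0. Its log2 ratio was 0.28 in EC, 0.30 in LOH and 0.62 in PODO, higher in the perfused library, and −0.92 in the cycling class, on 64 and 21 UMIs from 32 and 14 nuclei. Of those 21 UMIs 9 lay in 1 nucleus, and the ratio ran from −1.52 to −0.64 over the alternatives. STROMA was at 0.21, but its direction is not kept, since it was −0.0015 without 4 subclusters of doubtful lineage and −0.53 at a coarser clustering. The difference between these classes was not tested. The cycling class gathers dividing nuclei of several lineages, and its makeup in each library was not tested either.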

How the results depend on the processing

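The lower PIEZO1 in PODO (−2.05 to −1.92), EC (−0.92 to −0.63) and PC (−2.47 to −2.03) and the higher MRTFA in PC (0.99 to 1.15) and CNT (0.46 to 0.56) kept their direction under every alternative that gave a value. At a resolution of 0.3, where STROMA was smaller, its log2 ratios were −0.53 for WWTR1, −0.71 for MRTFA, 0.36 for PIEZO2 and 0.36 for YAP1, its SRF level 3.77 and 4.40 CPM, and PIEZO2 in PT 0.15. A resolution of 1.0 gave 0.15 for PIEZO2 in PT and 0.55 for MRTFA in IMM. With doublets kept, PIEZO2 in PT was 0.27, and the levels of PIEZO2 in perfused EC, MRTFB in perfused PC and WWTR1 in EC were 264, 751, 665 and 792 CPM. PIEZO2 in PT was −0.00019 without a mitochondrial limit, 0.081 with members among the variable genes, 0.092 without integration (where WWTR1 in STROMA was 0.024) and 0.19 with subclusters weighted equally (where MRTFA in EC was 0.20).

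Leaving out nuclei with another lineage's marker left 3 and 1 podocyte nuclei and none in DCT. Ratios were then −0.093 for PIEZO2 in PT, 0.34 for MRTFB, 0.27 for YAP1 and 0.44 for WWTR1 in EC, −2.75 for SRF in STROMA and −0.33 for YAP1 in LOH. Levels were 0 CPM for PIEZO1 in perfused PODO, 269 CPM for PIEZO2 and 986 CPM for WWTR1 in perfused EC, 1043 CPM for MRTFB in unperfused PC, 484 and 424 CPM for YAP1 in PC, and 61.9 and 9.20 CPM for SRF in STROMA. TMM factors gave 0.38 for MRTFB and 0.42 for WWTR1 in EC and 0.19 for MRTFB in PT. DESeq2 size factors gave 0.40, 0.45 and 0.20 for these, 0.22 for PIEZO2 in EC and −0.046 for YAP1 in LOH. Subtracting free RNA gave 1.04 for MRTFB in STROMA, where the free share is an upper estimate. It also gave 312 CPM of PIEZO2 in unperfused EC and 762 and 920.0 CPM of WWTR1 in EC. Chosen after seeing the data, STROMA without 4 subclusters gave 0.49 for MRTFB and −0.0015 for WWTR1, and the macrophage-like nuclei alone 0.94 for MRTFA in IMM. The cause of these shifts was not tested. A change of sign was counted only for ratios whose main interval lay without 0. Of the ratios that answer a comparison, 330 stayed within their counting interval under an alternative, 28 left it and 4 were counted as changed in sign. Of the other ratios 428 stayed within it and 28 left it. Ratios whose interval held 0 also crossed 0 without being counted so, such as SRF in STROMA (−2.75 to 0.67 over the alternatives).

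No paired analysis was possible because each group has 1 library, and no library was left out for that reason. Depth limits SRF everywhere and PIEZO1 and PIEZO2 in the tubule, where few UMIs were counted.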

Other observations

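Clusters that no marker list named also held the genes. A cluster led by DPP10, SLIT3, CDH18 and NTNG1 (145 and 81 nuclei) held YAP1 at 454 and 378 CPM (log2 ratio −0.27, −0.65 to 0.11), and held PIEZO1 at 33.5 and 55.7 CPM (12 and 14 UMIs, 0.74, −0.48 to 1.98). SRF there was at 11.2 CPM on 4 UMIs and 63.7 CPM on 16 UMIs (2.51, 0.88 to 4.55). Unnamed clusters were not put through the alternative settings. The parietal epithelial markers CLDN1, ALDH1A2 and PAX2 were highest in this cluster, at means over the libraries of 177, 384 and 649 CPM.

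In a cluster led by POU2F3 and SLC5A8 (73 and 180 nuclei), YAP1 was at 316 and 227 CPM (−0.48, −0.77 to −0.18), MRTFB at 294 and 289.7 CPM and MRTFA at 46.1 and 71.7 CPM. That cluster carried proximal tubule markers. Its mean over the libraries was 5701 CPM for CUBN, against 5520 CPM in PT, and 2845 CPM for LRP2, against 3676 CPM in PT. A cluster led by AGMO, RIMS2 and MEGF6 (103 and 97 nuclei) held 474 and 476 CPM of MRTFB and 281 and 299.8 CPM of WWTR1. PIEZO2 was at most 15.9 CPM in all 4 unnamed clusters.

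Lymphatic-like endothelial nuclei (17 and 4) held 840.1 and 1301 CPM of WWTR1 on 29 and 26 UMIs. An IMM subcluster with T lymphocyte markers but few UMIs (49 and 110 nuclei) held 506 and 363 CPM of MRTFA (−0.48, −1.10 to 0.17) and 15.8 and 73.7 CPM of YAP1 on 1 and 14 UMIs.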
